A study of Mus musculus with 11 samples.

Results

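The genes described here are 10 members of the Notch signalling pathway: the receptors Notch1, Notch2 and Notch3, the ligand Jag1, the Fringe glycosyltransferases Lfng, Mfng and Rfng, and the HES and HEY repressors Hes1, Hey1 and Heyl. They were taken by RefSeq accession from a table of 23286 rows, and each of the 10 had exactly 1 row. They were chosen by pathway role with their group FPKM values in all 3 comparisons already known, so their values below are a description without a test. The study profiled polyA RNA of mouse embryonic palatal mesenchyme cells (MEPMs), cultured cells from the connective tissue of the palate at E13.5. All groups were grown in 10% fetal bovine serum and kept overnight in 0.1%. One group stayed serum starved (4 libraries). Another received PDGFA at 30 ng/mL for 1 h (4 libraries). The last received FGF1 at 50 ng/mL together with 1 µg/mL of heparin, also for 1 h (3 libraries). Both proteins are growth factors that signal through receptor tyrosine kinases, and heparin helps FGF bind its receptor. Heparin was given with FGF1 only, so the effects of FGF1 and of heparin cannot be told apart. The labels name no genotype or strain, and do not say whether libraries came from separate cultures.

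Notch receptors are cell surface proteins that are cut when a ligand on a neighbouring cell, of the Jagged or Delta family, binds them. The freed intracellular part enters the nucleus, joins the DNA-binding protein RBPJ and a Mastermind coactivator, and turns on genes such as those of the HES and HEY repressors. Fringe enzymes extend the O-fucose sugars on the extracellular part of the receptor and so alter which ligands activate it. In the developing palate, Jagged ligand and Notch receptor genes are known to be active in the growing shelves.

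Promoter sequences are shown for Lfng, the gene with the largest fold among the 10 after FGF1, and for its relative Rfng, whose level stayed close to that of starved cells. RefSeq promoter windows on GRCm38.p6 matched 6 of the 10 genes, and those of Hes1, Hey1, Heyl and Mfng were not used here. Each run covers the 250 bases upstream of the annotated start, 5′ to 3′ on the gene's strand. Capitals mark TGGGAA on either strand, the core of the RBPJ binding sequence. The Lfng window lies at chr5:140607091-140607340 on the plus strand and that of Rfng at chr11:120784205-120784454 on the minus strand.
Lfng: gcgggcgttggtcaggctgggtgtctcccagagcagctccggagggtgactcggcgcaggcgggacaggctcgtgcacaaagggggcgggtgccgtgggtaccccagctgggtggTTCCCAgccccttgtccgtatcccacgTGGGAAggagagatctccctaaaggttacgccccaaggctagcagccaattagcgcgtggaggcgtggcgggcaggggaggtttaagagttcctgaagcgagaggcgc
Rfng: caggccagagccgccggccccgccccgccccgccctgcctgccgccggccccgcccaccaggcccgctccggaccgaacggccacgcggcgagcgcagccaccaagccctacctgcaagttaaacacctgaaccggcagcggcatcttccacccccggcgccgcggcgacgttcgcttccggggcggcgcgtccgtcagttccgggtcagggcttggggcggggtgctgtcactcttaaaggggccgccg
The Lfng window held 2 matches, at bases -135 to -130 and -108 to -103 from the start. At least 1 match was present in 21.6% of 32536 distinct windows of this length, and 2 or more in 2.78%. The second match in Lfng overlaps an E box (CANNTG) at -112 to -107, the sequence class bound by basic helix-loop-helix factors, which 66.2% of windows hold. Lfng held another E box at -146 to -141, Rfng held 1 at -126 to -121 and Jag1 held 1 at -82 to -77. The N box of HES factors (CACNAG) had 2 matches in Notch3, 1 each in Lfng, Rfng, Notch1 and Notch2, and 0 in Jag1 (36.7% of windows hold it). The windows of Rfng, Notch1, Notch2, Notch3 and Jag1 held no TGGGAA. Of growth factor response motifs, the 6 windows held no AP-1 site (TGANTCA) and no CArG box, the sequence bound by SRF, against 6.73% and 1.48% of all windows. Rfng held 1 match to the EGR core GTGGGCG (7.05% of windows) and 2 to the ETS core CCGGAA (12.1%). Lfng held neither. The CRE core TGACG, bound by CREB proteins, had 1 match each in Notch3, Jag1 and Rfng and 0 in the other 3 windows (17.9% of all windows hold it). These are matches of letters within a short window, not measured binding.

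Each group was given as a single FPKM value per gene (fragments counted per kilobase of a transcript and scaled to the library's mapped total). The authors estimated it from all libraries of the group and deposited a lower and an upper bound with it, shown here in square brackets. Values of single libraries were not used here, so there is no replicate spread and no p-value. Groups are called apart where the deposited intervals do not touch, with at least 1 FPKM in some group. Of all rows 11702 met that minimum, as did 9 of the 10 genes. The exception was Mfng. The plot of levels by group shows the 9 genes together.

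**Figure D1:**
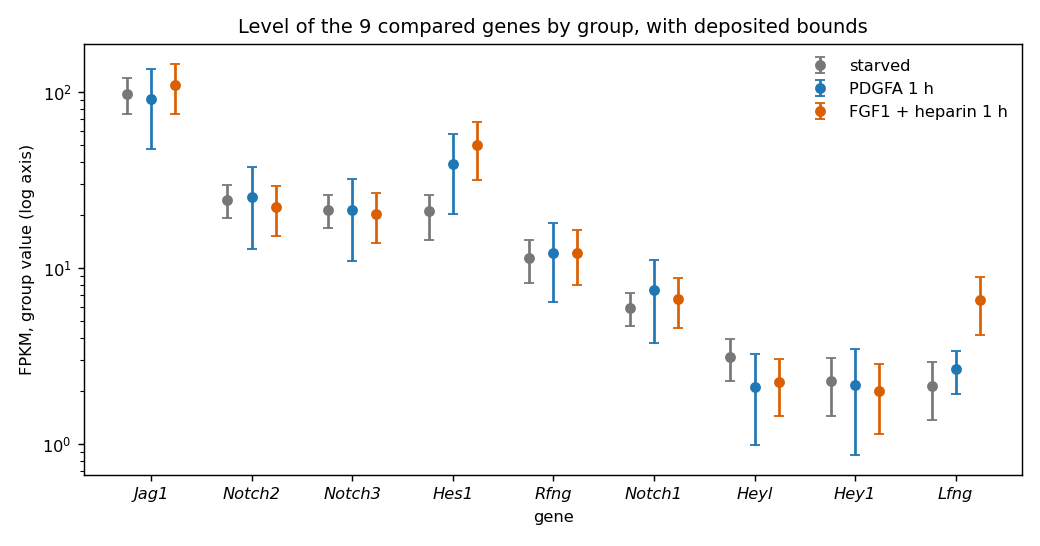
FPKM of the 9 compared genes (log axis) in starved, PDGFA and FGF1 with heparin cells, 1 point per group with its deposited bounds. Lfng and Hes1 with FGF1 lie clear of the starved interval, and for the other 7 genes the intervals of the 3 groups overlap.

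In starved cells the ligand gene Jag1 stood highest of the 10, at 97.8 FPKM [74.9 to 121], above 94.2% of compared rows. Next came Notch2 at 24.3 [19.2 to 29.5], Notch3 at 21.5 [16.96 to 26.0] and Hes1 at 20.96 [14.5 to 26.1], whose intervals overlapped one another. Rfng followed at 11.4 [8.25 to 14.4] and Notch1 at 5.95 [4.69 to 7.20], each clear of its neighbours in the order. Heyl at 3.10 [2.28 to 3.92], Hey1 at 2.27 [1.45 to 3.09] and Lfng at 2.14 [1.37 to 2.92] formed a low, overlapping set. Mfng was near 0, at 0.00580 [0 to 0.0623]. In FPKM, which allows for transcript length, Jag1 made up 99.3% of the summed level of the 5 Jagged and Delta genes, and Notch2 and Notch3 made up 47.0% and 41.4% of that of the 4 receptors. Notch4, a receptor known mainly from endothelium, was at 0.0806 FPKM. In whole cultures, fewer cells of a type and less RNA per cell cannot be told apart.

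FGF1 with heparin gave called rises over starved cells for Lfng and Hes1, and none for the receptor and ligand genes. That is 2 of the 9 compared genes higher and 0 lower, beside 0.538% higher and 0.0171% lower among all compared rows. With PDGFA 0 of the 9 were called, beside 0.308% higher and 0% lower. The PDGFA intervals were wider in general. Over all compared rows the median distance of the bounds from the value was 49.6% of the FPKM with PDGFA. It was 34.7% with FGF1 and 25.6% in starved cells. A difference of a given size is therefore called less readily with PDGFA, and the numbers of calls do not compare the 2 ligands. Between the ligands 1 was called higher with FGF1 and 0 lower, beside 0.0256% and 0.094%. These contrasts were known when the genes were chosen, so nothing is read from the shares. The 9 had a median log2 fold of 0.09 with FGF1, where all rows had 0.02, and of 0.05 with PDGFA, where all rows had 0.00. With FGF1 5 of the 9 values were above those of starved cells, and 56% of all rows were.

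**Figure D2:**
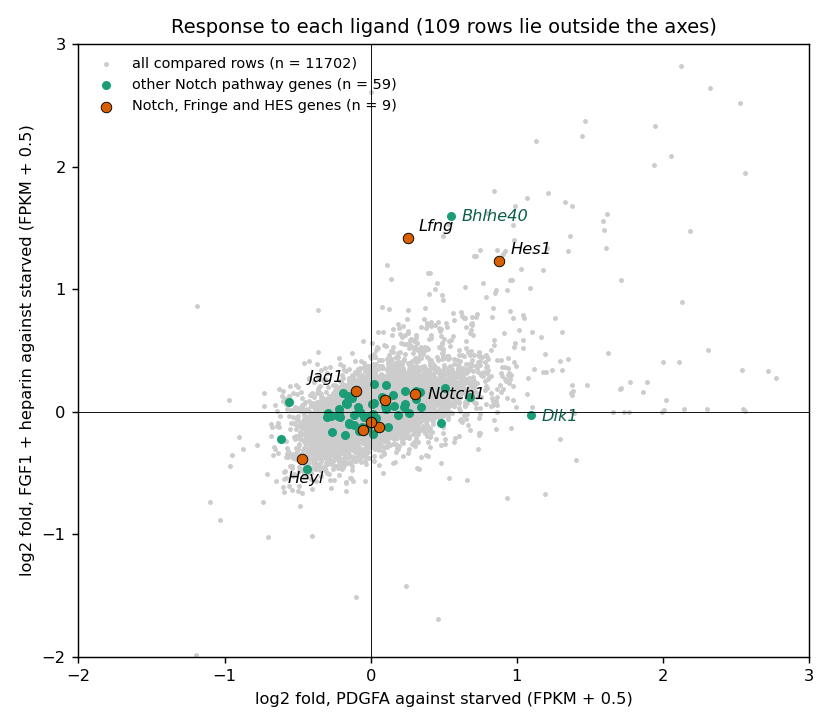
Log2 fold against starved cells with PDGFA (x axis) and with FGF1 and heparin (y axis), both on FPKM + 0.5, for 11702 compared rows (grey, 109 outside the axes), 59 other Notch pathway genes (green) and the 9 genes (orange). Hes1 lies at 0.88 and 1.23, and Lfng at 0.26 and 1.42, apart from the other 7 genes. Both axes share the starved libraries.

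Of the Fringe genes, Lfng was called higher with FGF1, and Rfng was not called in any comparison. Lfng had 2.14 FPKM [1.37 to 2.92] in starved, 2.65 [1.93 to 3.37] in PDGFA and 6.55 [4.17 to 8.92] in FGF1 cells. The FGF1 interval lay above both others, and the starved and PDGFA intervals overlapped. Against starved cells this was a 3.06-fold difference with FGF1, or 1.83 to 5.11 if the bounds are read as 95% limits. With PDGFA it was 1.24-fold (0.788 to 1.95). On the log2 scale of FPKM + 0.5 the difference between FGF1 and starved cells was 1.42, above that of 99.7% of compared rows. Lfng, Lunatic Fringe, is the Fringe gene known for its cyclic expression in the segmenting mesoderm.

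Among the relatives of Lfng, Rfng showed no such difference. Rfng, Radical Fringe, had 11.4 FPKM [8.25 to 14.4] in starved, 12.2 [6.44 to 18.0] in PDGFA and 12.2 [7.97 to 16.4] in FGF1 cells. The fold with FGF1 was 1.07 (0.691 to 1.66). Mfng, Manic Fringe, had 0.0349 FPKM [0 to 0.0831] with PDGFA and 0.00801 [0 to 0.0623] with FGF1, both too low to compare. The level of Rfng was 5.33 times that of Lfng in starved cells, 4.61 times with PDGFA and 1.87 times with FGF1. Lfng therefore made up 15.8% of the summed Fringe FPKM in starved cells and 34.9% with FGF1.

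Lfng was also the only one of the 9 genes whose FGF1 and PDGFA intervals lay apart, with a 2.47-fold higher level with FGF1 (1.57 to 3.89). The PDGFA interval of Lfng was unusually narrow. The bounds of Lfng with PDGFA lay 27.2% of the FPKM from the value on average, while 1528 rows within 1.5-fold of its level had a median of 56.2%, and only 1 of them was narrower. Given that median width, the upper bound with PDGFA would be 4.14 FPKM, just under the FGF1 lower bound of 4.17, so the intervals would still not touch. With a slightly wider PDGFA interval they would touch, so this call depends on the width taken.

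**Figure D3:**
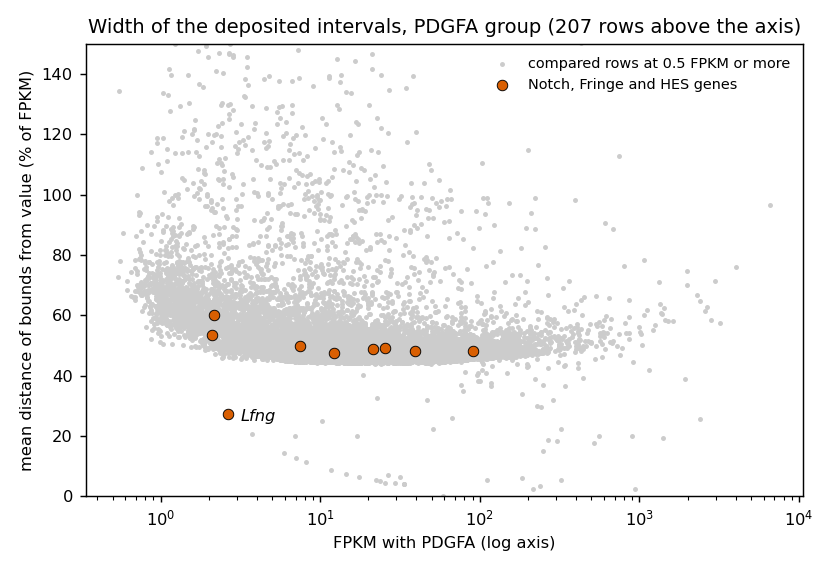
Width of the deposited PDGFA interval (mean distance of the bounds from the value, as a percent of the FPKM) against FPKM with PDGFA (log axis), for compared rows in grey and the 9 genes in orange. Lfng sits at 27.2%, below the band of rows of its level, and the other 8 genes lie between 47.3% and 60.01%. A further 207 rows lie above the axis.

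Of the HES and HEY repressors, which bind DNA as basic helix-loop-helix proteins and recruit corepressors, Hes1 was called higher with FGF1 and the others were not called. Hes1 had 20.96 FPKM [14.5 to 26.1] in starved, 39.0 [20.2 to 57.9] in PDGFA and 49.7 [31.6 to 67.5] in FGF1 cells. The FGF1 interval lay above the starved one. The PDGFA value was higher than the starved value too, but its lower bound lay under the starved upper bound. The fold against starved cells was 2.37 with FGF1 (1.504 to 3.74) and 1.86 with PDGFA (1.07 to 3.25). The log2 difference with PDGFA, 0.88, exceeded that of 98.2% of compared rows. Between the ligands Hes1 differed by 1.27-fold (0.697 to 2.33), with overlapping intervals, so the group values do not separate its level with FGF1 from that with PDGFA. Both comparisons with starved cells use the same starved libraries.

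The related repressors had values at or below those of starved cells, with overlapping intervals throughout. Heyl had 3.10 FPKM [2.28 to 3.92] in starved, 2.105 [0.983 to 3.23] in PDGFA and 2.25 [1.44 to 3.06] in FGF1 cells. Its fold was 0.678 with PDGFA (0.374 to 1.23) and 0.725 with FGF1 (0.463 to 1.13). On the log2 scale both differences were among the lowest 1.27% of compared rows, though not called. Hey1 had 2.27 FPKM [1.45 to 3.09], 2.17 [0.864 to 3.47] and 2.001 [1.14 to 2.85] in the same order of groups. The level of Hes1 was 6.75 times that of Heyl in starved cells, 18.5 times with PDGFA and 22.1 times with FGF1.

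The receptors and the ligand showed no called difference in any comparison. Notch1 had 5.95 FPKM [4.69 to 7.20] in starved, 7.46 [3.75 to 11.2] in PDGFA and 6.65 [4.54 to 8.75] in FGF1 cells. Notch2 had 24.3 [19.2 to 29.5], 25.3 [12.9 to 37.7] and 22.3 [15.3 to 29.3], and Notch3, at 21.5 [16.96 to 26.0], 21.5 [10.99 to 32.0] and 20.2 [13.9 to 26.6], likewise had overlapping intervals. The 3 receptors had the same order in each group. Jag1 had 97.8 FPKM [74.9 to 121], 91.0 [47.3 to 135] and 109.8 [74.7 to 145]. With FGF1 the folds of these 4 genes ran from 0.915 for Notch2 to 1.12 for Jag1, and the limits of each spanned 1. They allow rises up to 1.67-fold for Jag1 and falls down to 0.626-fold for Notch2. Part of the Notch1, Notch2 and Notch3 exons overlaps other annotated genes in GENCODE M21 (1482, 541 and 488 bases). The overlapping genes lie on the opposite strand for Notch1 and Notch3 and on the same strand for Notch2. Whether the libraries kept strand is not given in the sources used here. Strand would not separate the reads of the Notch2 overlap in any case. Reads in these overlaps therefore cannot be assigned with certainty. The exons counted here pool all annotated transcripts of a gene, 14232 bases for Notch1, where the transcript matched to its row has 9488 nt. How many overlapping bases lie in the measured transcripts was not examined.

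The rest of the pathway was described with 76 further genes in 7 lists by role. Of these, 75 had a row and 59 reached 1 FPKM. With FGF1 1 of the 59 was called higher and 0 lower, and with PDGFA and between the ligands 0 were called. Over all compared rows 0.538% were higher with FGF1, so 1 or 0 calls in a set of this size is near the background and is no result about the pathway. Their median log2 fold was -0.01 with FGF1 and -0.02 with PDGFA, against 0.02 and 0.00 over all rows. The called gene was Bhlhe40, a repressor of the same helix-loop-helix class as HES proteins, listed here among HES relatives and direct targets. It had 13.1 FPKM [10.1 to 16.04] in starved, 19.3 [10.3 to 28.4] in PDGFA and 40.6 [28.1 to 53.2] in FGF1 cells.

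No other gene of that list was called. Hes6, a HES family member that is known to inhibit Hes1 protein, had 29.6 FPKM in starved, 28.0 in PDGFA and 26.5 in FGF1 cells. Hey2, a HEY repressor, had 2.70, 1.59 and 2.24 FPKM, and Bhlhe41, the close relative of Bhlhe40, had 1.43, 1.28 and 1.39. Nrarp, which encodes a feedback inhibitor of the Notch nuclear complex, had 0.949 FPKM [0.562 to 1.33], 0.485 [0.118 to 0.843] and 1.03 [0.562 to 1.49]. Hes2, Hes3, Hes5, Hes7 and Helt stayed under 1 FPKM in every group.

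The products of the next lists modify the receptor, cut it and act with it in the nucleus. With so few calls over all rows, a count of 0 in lists this short says nothing particular to them. All 9 genes of O-glycan addition to Notch were compared and 0 were called, with a median log2 fold of -0.02 with FGF1. The highest of them was the xylosyltransferase gene Gxylt2, with 39.3 FPKM in starved, 31.8 in PDGFA and 38.0 in FGF1 cells, and Poglut1, which adds O-glucose to the receptor, had 34.1, 28.3 and 33.2. Pofut1, which adds the O-fucose that Fringe enzymes extend, had 20.1 FPKM in starved, 19.4 in PDGFA and 19.5 in FGF1 cells. Of 10 genes for receptor cleavage 9 were compared and 0 called. The sheddase gene Adam10 had 51.0, 43.8 and 51.7 FPKM, and Ncstn, of the gamma-secretase complex, had 99.7, 94.0 and 102. Furin, the protease that matures the receptor, had 41.7 [32.9 to 50.5], 59.4 [27.5 to 91.4] and 47.8 [32.3 to 63.2]. Of 10 genes of the nuclear complex 8 were compared and 0 called. Rbpj had 12.2, 10.7 and 13.6 FPKM, and Maml1, a Mastermind coactivator, had 13.2, 16.9 and 13.6.

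Of 14 corepressors 0 were called. The one with the highest level, Tle5, had 180.0 FPKM [141 to 218] in starved, 289 [122 to 455] in PDGFA and 195 [133 to 258] in FGF1 cells. Of 15 trafficking and ubiquitin regulators 12 were compared and 0 called, with Numbl, a relative of the Notch inhibitor Numb, at 44.7, 52.7 and 50.2 FPKM. The ubiquitin ligase gene Itch, which targets Notch for turnover, had 21.96, 18.9 and 21.3, and Mib1, needed for ligand activity, had 16.6, 17.03 and 16.04. Among 8 other ligands and receptors 2 reached 1 FPKM. Dlk1, a Delta-like protein without the domain that binds Notch in the usual ligands, had 8.58 [6.54 to 10.6], 18.9 [8.11 to 29.7] and 8.40 [5.40 to 11.4], the largest log2 difference of the 59 with PDGFA (1.09), with overlapping intervals. Dner had 4.55, 4.03 and 5.004. Jag2, Dll1, Dll3, Dll4 and Notch4 stayed below 1 FPKM.

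**Figure D4:**
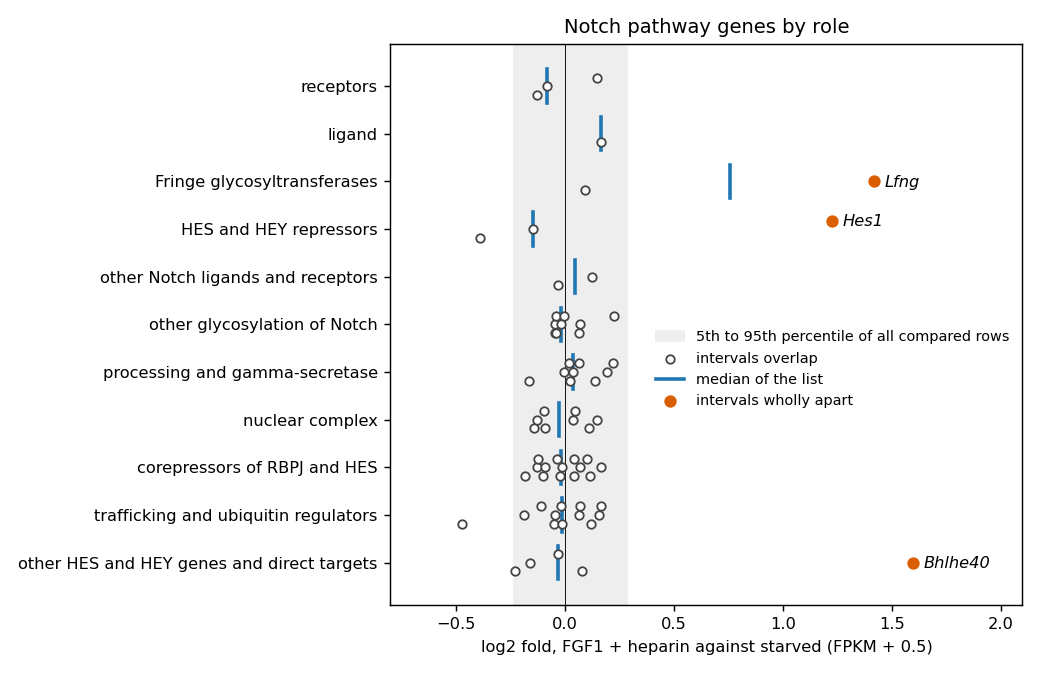
Log2 fold of FGF1 with heparin against starved cells (FPKM + 0.5) for every compared Notch pathway gene, 1 row per list, with the list's median as a blue bar and the 5th to 95th percentile of all compared rows in grey. Filled points are genes whose intervals lay apart: Lfng, Hes1 and Bhlhe40.

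The rows most like Lfng and Hes1 were found by distance in the plane of the 2 log2 folds, over 3 group values. Nearest to Lfng were Nuak2 (distance 0.24), H4c3 (0.27), Zfp36l2 (0.29), Tcim (0.32) and Lif (0.32). Of these, Nuak2, Zfp36l2 and Lif were called higher with FGF1 against starved cells. H4c3 lay near the floor, at 0.204 FPKM in starved, 0.260 in PDGFA and 1.11 in FGF1 cells. Nearest to Hes1 were Btg2 (0.07), Ubb with its pseudogene (0.09), Ier3 (0.09), Ccn2 (0.16) and Zfp36 (0.16), and all 5 were called higher with FGF1. No neighbour of either gene was called with PDGFA against starved cells. Neighbours were picked by these same folds, so which of them were called follows largely from the choice. The Ubb row shares sequence with a copy and is uncertain. Btg2, an antiproliferative gene, had 30.2 FPKM in starved, 57.1 in PDGFA and 74.7 in FGF1 cells. Each of the 5 neighbours of Hes1 lay closer than the nearest one of Lfng.

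The 2 called genes had short transcripts, of 1468 nt for Hes1 and 2305 nt for Lfng, from loci of 2440 and 8205 bp. So did genes that were not called. Rfng has 2118 nt from 3460 bp, and Hey1 has 2423 nt from 3680 bp. The receptors have 8016 to 10500 nt. GC content was 58.8% for the Lfng transcript and 50.7% for Hes1, where the median of compared rows was 50.4%. Copies of ATTTA, an element known from unstable mRNAs, were counted in the 3′ UTR. Lfng had 1 and Hes1 had 0, and the median of 11046 rows was 1. Jag1 had 10, as many as or more than which were found in 5.58% of rows.

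The labelled cell type was checked with 13 markers of palatal mesenchyme, of which 11 reached 1 FPKM. Prrx1 stood at 233 FPKM in starved cells and Twist1 at 60.1, while Tbx22 was under 1 FPKM and Col1a1 was 1 of 2 rows in the table with a failed estimate. Also in starved cells, Vim had 1982 FPKM, Col1a2 2025, Pdgfrb 71.1, Barx1 60.7, Msx1 59.8 and Shox2 18.6. Low but above 1 FPKM there were Pdgfra at 3.87, Osr2 at 3.73 and Meox2 at 1.43. Smooth muscle and pericyte markers, which include Notch3, summed to 4559.7 FPKM in starved, 6629 in PDGFA and 5605 in FGF1 cells, and 6 of 9 reached 1 FPKM. Most of the sum came from Acta2 (2745, 3996 and 3390) and Tagln (1646, 2290 and 2016). Cnn1 had 112, 265 and 142 FPKM, Myh11 21.6, 41.7 and 23.4, and Cspg4 12.4, 13.3 and 12.5. Rgs5, Kcnj8 and Abcc9 stayed under 1 FPKM in every group. None of these smooth muscle and pericyte markers was called in any comparison. Endothelial markers, relevant because endothelium uses Notch signalling, summed to 6.28, 8.39 and 6.86 FPKM. Of those 10, 3 reached 1 FPKM, Pecam1 and Cdh5 stayed under 0.1 FPKM, and Tie1 was at 0. Skeletal muscle markers summed to 23.7, 110.4 and 30.8 FPKM, with 6 of 9 at 1 FPKM. Most of the sum came from the actin gene Acta1 (17.2, 87.5 and 24.6). Acta1 and Actc1 (1.46, 10.96 and 1.49) were the 2 of 9 called higher with PDGFA. Myog had 0.687, 1.56 and 0.859 FPKM, Des 0.751, 1.82 and 0.897, Mylpf 2.49, 5.30 and 2.23, and Tnni1 0.704, 2.68 and 0.414. Each of these was highest with PDGFA and was not called. Myod1 (0.0712, 0.258 and 0.0439), Myf5 (0.0634, 0.0602 and 0.0854) and Chrna1 (0.212, 0.246 and 0.181) stayed under 1 FPKM in every group. Any part of muscle cells in the PDGFA values of Hes1 and the other genes was not tested. Markers of neural crest glia and neurons summed to 39.5, 51.7 and 47.1 FPKM, with 2 of 8 at 1 FPKM and most of the sum from the tubulin gene Tubb3 (37.0, 49.8 and 44.8). Sox10 stayed under 1 FPKM. Epithelial and blood markers had 1 of 8 and 0 of 4 at 1 FPKM.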

How the data were processed

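The 11 libraries fall into 3 groups by their titles. The submitters' processing notes name CASAVA, TopHat, Cuffdiff and build mm10. Versions, settings and the annotation are not stated in the sources at hand. The authors deposited FPKM values, 1 per group and row, with lower and upper bounds whose confidence level is not stated. Folds with limits take them as 95% bounds. FPKM is by definition scaled to the library total, and whether a further scaling was applied is not stated. Without one, a change in abundant genes can shift the rest. Depth is unknown.

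Accessions were matched to RefSeq genes of GRCm38.p6 (22992 rows) or GENCODE M21 (126), and 168 rows stayed unnamed. Rows needed 1 FPKM in a group and no failed estimate (2 rows failed). Log2 folds use FPKM + 0.5, which understates changes of low genes. A call needs intervals apart and each value within its own bounds. The steps were checked on simulated data. The members, lists and rules were chosen with earlier results of these data known. By rule the text names the 10 genes, every called pathway gene, beyond those up to 4 of each list by level, and the 5 rows nearest to Lfng and to Hes1. Pofut1 and some genes under 1 FPKM lie outside that rule and were picked with values in view. The work used Python 3.11.15 with pandas 2.3.3, numpy 2.4.6, statsmodels 0.14.6, scipy 1.17.1 and, for plots, matplotlib 3.10.9.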

Additional observations from a re-analysis of the deposited data

How the results depend on the processing

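Alternatives covered the pseudocount, the minimum FPKM, median-of-ratios and quantile scaling, a trend on GC content, length and level, a minimum fold, z values from the intervals, short transcripts and, added after the data were seen, a wider PDGFA interval for Lfng. The pseudocounts could not change a call of the 9 genes, since calls rest on the intervals. Leaving out short transcripts could not either, since none of the 9 is that short. The minimum FPKM and the minimum fold could only remove a call, and removed none of the 9 genes' calls. At 5 FPKM Hey1 and Heyl were no longer compared. Both scalings, the trend and the z values could change a call in either direction. Under these 4 Lfng and Hes1 were called higher with FGF1 than in starved cells, Lfng was called higher with FGF1 than with PDGFA, and no other of the 9 was called. The wider interval also left Lfng called, by a narrow margin (upper bound 4.14 FPKM with PDGFA, lower bound 4.17 with FGF1). It was not combined with either scaling, and a small rescaling could close that margin. Over all settings the log2 folds against starved cells were 1.27 to 1.57 for Lfng and 1.15 to 1.24 for Hes1, and that of Lfng between the ligands 1.05 to 1.33. Of the uncalled folds 8 small ones, of Notch1, Notch2, Notch3 and Rfng, changed sign. The counts over all rows moved. With z values, rows lower with FGF1 than in starved cells were 11 in place of 2, PDGFA gave 118 higher and 4 lower in place of 36 and 0, and FGF1 against PDGFA gave 5 higher and 100 lower in place of 3 and 11. With at least 5 FPKM, 1 row was lower with FGF1 than in starved cells, and 5 were lower with FGF1 than with PDGFA. Without a minimum FPKM 1 row was lower with PDGFA, and with quantile scaling 3 were. With median-of-ratios scaling 1 row was higher with FGF1 than with PDGFA. The cause was not tested. No paired analysis was possible because the columns carry 1 value per group and no replicate numbers. For the same reason no replicate could be left out. No read depth limits can be given from FPKM alone.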
